A study of Mus musculus with 6 samples.

Results

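The regulatory CD4 T cells of the mouse kidney were taken here as the CD4-sorted T cells in which a Foxp3 transcript was counted. A cell barcode was a member when it had at least 500 detected features, at most 20% of its unique molecular identifiers (UMIs) from mitochondrial genes, at least 1 UMI over Cd3d, Cd3e and Cd3g, and at least 1 UMI of Foxp3. The rule found 730 members among 19819 Cd3 barcodes of the CD4 libraries and 54039 barcodes of the whole series. The study sorted live CD45+ αβ TCR+ lymphocytes of kidney into CD4, CD8 and double negative (DN) fractions by flow cytometry and counted their transcripts with droplet-based 3′ single-cell RNA-seq. The mice were WT C57BL/6J males of 7 to 8 weeks, either normal controls or subjected to ischemia-reperfusion (IR), a clamp on the pedicles of both kidneys lasting 30 min, with serum creatinine read at 24 h. Each of the 6 groups is 1 library, and how many mice entered it and when the kidneys were taken for sequencing are not given in the sources used here. With 1 library per group no test was possible, cells are not replicates, and every interval below is an exact 95% interval that covers counting error only.

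Foxp3 is a forkhead transcription factor that sets and keeps the regulatory T cell (Treg) state, in which a CD4 T cell restrains other immune cells rather than helping them. Tregs live on IL-2 that other T cells make, they carry the high-affinity IL-2 receptor and the co-inhibitory receptor CTLA-4, and in tissues some of them take on an effector state with receptors for alarmins and repair factors such as amphiregulin. In the kidney, Tregs are known for limiting inflammation after ischemic injury.

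The control CD4 library held 398 members of 9518 Cd3 barcodes and the IR CD4 library 332 of 10301. The other Cd3 barcodes of the same libraries, 9120 in control and 9969 in IR, are called Foxp3-negative barcodes and served as the comparison. Since members were chosen by their Foxp3 and Cd3 UMIs, their Foxp3 values are a description, and a Foxp3-negative barcode at these depths is not shown to lack the transcript. Levels are UMIs summed over a pool of barcodes and scaled to CPM, counts per 1e+06 UMIs of the pool, leaving out mitochondrial genes, ribosomal protein genes and Malat1. The member pools held 3086620 such UMIs in control and 708344 in IR, so that 3 counts, the limit that a count of 0 allows, correspond to 0.972 and 4.24 CPM. The left-out features took 19.9% of the UMIs of control members and 33.1% of those of IR members, against 21.2% and 38.1% in the Foxp3-negative barcodes. The headers of the control and IR matrices name different Cell Ranger versions, and IR barcodes were shallower, so that condition, software version and depth cannot be told apart.

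The transcript that chose the members, and the receptors CTLA-4 and OX40 that mark them, are shown by the promoters from which they are transcribed. RefSeq windows of GRCm38.p6 from 250 bases before to 50 bases after the transcription start were searched on both strands for TGTTTAC (a forkhead core), TGTGGT (a Runx core) and TTCNNNGAA (a STAT core). In the 32851 windows searched, which do not cover every chromosome, these letters were found in 3.65%, 16.8% and 8.30%. Foxp3 has a pair of annotated start windows on the plus strand, at chrX:7579426-7579725 and chrX:7580233-7580532, and the only match in them was a STAT core at position -139 from the second start, shown in capitals. The windows of Ctla4 at chr1:60908775-60909074 and of Tnfrsf4 at chr4:156013445-156013744, both on the plus strand, held none of the letters searched, which says nothing about binding outside them.
Foxp3, upstream start: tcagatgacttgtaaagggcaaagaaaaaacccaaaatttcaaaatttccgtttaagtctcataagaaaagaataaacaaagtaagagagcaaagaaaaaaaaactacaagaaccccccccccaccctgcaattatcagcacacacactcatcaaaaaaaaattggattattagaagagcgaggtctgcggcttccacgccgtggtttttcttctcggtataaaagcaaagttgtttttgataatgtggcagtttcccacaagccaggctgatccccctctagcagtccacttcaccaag
Foxp3, downstream start: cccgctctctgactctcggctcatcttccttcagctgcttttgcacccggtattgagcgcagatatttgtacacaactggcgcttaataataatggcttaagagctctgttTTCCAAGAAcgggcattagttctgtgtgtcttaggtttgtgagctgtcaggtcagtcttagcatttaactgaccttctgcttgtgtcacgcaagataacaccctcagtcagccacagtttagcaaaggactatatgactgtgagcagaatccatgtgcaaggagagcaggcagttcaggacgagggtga
Ctla4: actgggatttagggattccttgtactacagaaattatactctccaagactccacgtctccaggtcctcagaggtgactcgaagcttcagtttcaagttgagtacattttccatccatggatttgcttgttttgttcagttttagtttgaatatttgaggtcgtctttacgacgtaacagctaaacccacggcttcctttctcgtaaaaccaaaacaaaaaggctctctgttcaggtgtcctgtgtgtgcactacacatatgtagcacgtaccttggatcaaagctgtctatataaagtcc
Tnfrsf4: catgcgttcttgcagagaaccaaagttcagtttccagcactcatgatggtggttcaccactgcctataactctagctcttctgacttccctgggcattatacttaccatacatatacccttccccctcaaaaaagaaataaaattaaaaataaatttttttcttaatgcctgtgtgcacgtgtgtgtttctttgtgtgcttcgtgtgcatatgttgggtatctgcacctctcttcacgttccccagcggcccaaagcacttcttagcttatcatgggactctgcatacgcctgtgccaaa

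Members made up 4.18% (3.79 to 4.60) of the Cd3 barcodes in the control CD4 library and 3.22% (2.89 to 3.58) in the IR CD4 library. The median depth of members was 7874 UMIs in control and 2545.5 UMIs in IR, and that of the Foxp3-negative barcodes 7245.5 and 2439 UMIs. When every barcode was thinned to 1000 UMIs, with 60 and 77 shallower barcodes left out, the share with a Foxp3 UMI was 1.24% (1.02 to 1.48, 117 of 9458) in control and 1.64% (1.41 to 1.91, 168 of 10224) in IR. The order of the libraries was therefore opposite before and after thinning. The Foxp3 level over all Cd3 barcodes was 19.4 CPM (18.3 to 20.6) in control and 28.2 CPM (25.8 to 30.8) in IR, in the order of the thinned shares. In the other sorts Foxp3 was close to absent: 6 control CD8, 7 control DN and 3 IR CD8 barcodes held a UMI, with levels of 0.109, 0.100 and 0.406 CPM. After thinning those sorts had shares of 0.0109%, 0.0108% and 0.0320%, at median depths of 6942, 8553 and 1827 UMIs before it, and in IR DN 0 of 3638 barcodes had a UMI, where 3 counts of the total correspond to 0.0825% and the exact interval reaches 0.101%.

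Most control members held more than the minimum of Foxp3 and most IR members held just the minimum. In control 141 members had 1 Foxp3 UMI, 93 had 2 and 164 had 3 or more, up to 12, while in IR the numbers were 225, 74 and 33, up to 8. Few members lay close to the other limits of the rule. The fewest features of a member were 699 in control and 523 in IR, the highest mitochondrial share was 15% and 4.34%, and 6 control and 21 IR members had exactly 1 Cd3 UMI. Of all barcodes with a Foxp3 UMI, the Cd3 requirement kept out 2 in control and 23 in IR, the feature limit 0 and 2, and the mitochondrial limit 2 and 0. Among the 5% of barcodes with the most UMIs, which the study set aside as possible doublets, lay 58 control members (14.6%) and 46 IR members (13.9%). Of the members' barcode sequences, 2 in control and 3 in IR also occurred in another library of the same condition, and none of them was a Foxp3 barcode there.

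The label of regulatory T cells was checked on the 3 other markers, and each was far higher in members than in Foxp3-negative barcodes of either library. Ikzf2 (chr1:69531214-69687245, minus strand), which encodes the Ikaros family factor Helios, stood at 3076 CPM in control members against 246 in the Foxp3-negative barcodes and at 1369 against 158 in IR. These are log2 ratios of 3.65 (3.61 to 3.68) and 3.11 (3.01 to 3.22). Ctla4 (chr1:60887000-60915832, plus strand) had levels of 1082 against 92.2 CPM in control and 1406 against 202 in IR, log2 ratios of 3.55 (3.49 to 3.62) and 2.80 (2.70 to 2.90). Tnfrsf4 (chr4:156013843-156016612, plus strand), which encodes the costimulatory receptor OX40, had 582 against 39.9 CPM and 1192 against 138, log2 ratios of 3.86 (3.77 to 3.96) and 3.11 (3.0 to 3.23). For none of the 3 markers did the counting intervals of members and negatives overlap, in either library.

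The shares of barcodes with a marker UMI were also higher in members when barcodes were thinned to equal total UMIs. These totals include the left-out features, and members were chosen at full depth. Shares of the control and IR libraries are therefore not fully matched in depth. After thinning to 1000 UMIs, Ikzf2 was found in 76.1% of control members and 13.0% of the negatives, and in 46.8% and 7.29% in IR. For Ctla4 the shares were 49.0% and 5.39% in control, and 52.0% and 8.89% in IR. For Tnfrsf4 they were 32.4% and 2.42%, and 37.4% and 5.79%. Without thinning, Ikzf2 was found in 92.7% of control and 72.6% of IR members, Ctla4 in 87.2% and 77.4%, and Tnfrsf4 in 75.6% and 62.3%. In the control CD8 sort, thinned shares were 5.40% for Ikzf2, 5.99% for Ctla4 and 0.305% for Tnfrsf4. Without thinning, all 3 markers were found together in 273 of 398 control members (68.6%) and 140 of 332 IR members (42.2%), and in 2.86% and 2.18% of the negatives. None of the 3 was found in 15 control members (3.77%) and 25 IR members (7.53%). After thinning to 1000 UMIs, all 3 were found in 17.1% of control and 12.2% of IR members and none in 12.1% and 18.2%.

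**Figure D1:**
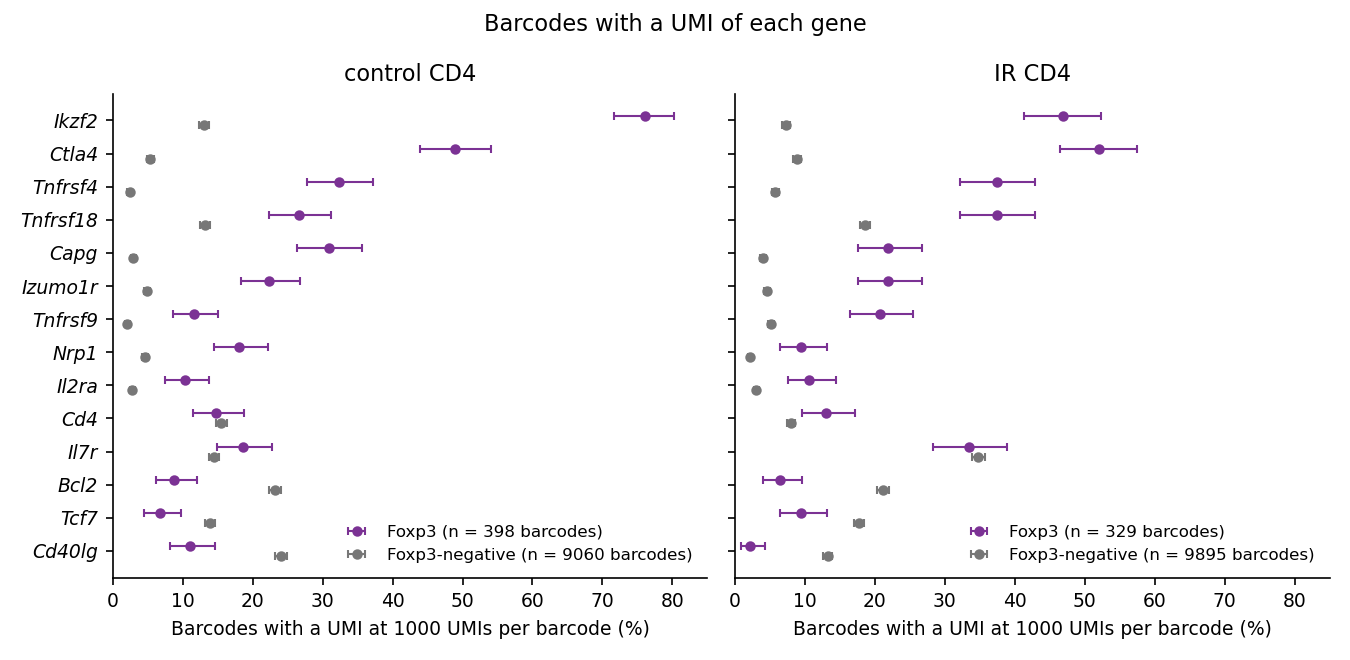
Share of barcodes with at least 1 UMI of each gene after thinning every barcode to 1000 UMIs (x axis, percent), for members (purple) and Foxp3-negative Cd3 barcodes (grey) of the control and IR CD4 libraries, with exact 95% binomial intervals. Members lie to the right for the Treg markers, with Ikzf2 at 76.1% in control and 46.8% in IR, and to the left for Bcl2, Tcf7 and Cd40lg.

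The sort was also checked on its own gene and on those of other cells. A Cd4 UMI was found in 72.6% of control members and 29.8% of IR members, against 58.6% and 19.6% of the negatives and 0.0620% of the control CD8 barcodes, all unthinned. After thinning to 1000 UMIs the Cd4 shares were 14.8% of members and 15.6% of negatives in control, and 13.1% and 7.96% in IR. Cd8a was at 0 in the members of both libraries, and the summed level of the CD8 list was 10.4 CPM in control members and 11.3 in IR members. Of the 12 myeloid genes, Cst3 carried most of the sum of 139 CPM in control and 198 in IR members (117 and 240 CPM in the negatives), and S100a8 and S100a9 were at 0 in both. The B cell list summed to 506 and 457 CPM in members against 166 and 153 in the negatives. Nearly all of it was Ighm, the gene of the IgM heavy chain, with 461 against 162 CPM in control and 397 against 139 in IR, while the defining Cd79a was at 1.30 and 1.41 CPM in members. The NK and invariant NKT list summed to 96.2 and 46.6 CPM in members against 337 and 218 in the negatives, and the γδ list to 32.7 and 11.3 against 111 and 77.8. Antigen presentation genes summed to 122 and 107 CPM in members against 120 and 113 in the negatives, endothelial genes, nearly all Pecam1, to 165 and 159.5 against 130 and 100.5, and tubule genes to 1.94 and 2.82 against 3.34 and 5.28. Erythroid genes summed to 2.27 and 15.5 CPM against 1.24 and 223, where 2010 of the 2175 Hbb-bs UMIs of the IR negatives lay in 1 barcode. The part of these cells in the results was not tested, and leaving out every barcode with a UMI of the defining macrophage, neutrophil and B cell genes (C1qa, Csf1r, Lyz2, Cd79a and others) gave 128 genes higher and 87 lower in control members, 122 and 86 of them called before, and 166 and 106 in IR members, 149 and 99 of them called before, by the rule explained next. Leaving out barcodes with at least 2 UMIs of the whole myeloid and B cell lists, which removed 298 of 398 control and 108 of 332 IR members, kept 87 of 129 higher and 71 of 88 lower calls in control, and 125 of 152 and 79 of 108 in IR.

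Across all genes, a gene was called where its CPM differed at least 2-fold between the pools and reached 50 CPM in the higher pool, a rule of size and not a test, with Foxp3 left out. In control, 129 of 4475 genes at that level (2.88%) were higher in members and 88 (1.97%) were lower. In IR, 152 of 4156 (3.66%) were higher and 108 (2.6%) lower. These 4 percentages, of genes at 50 CPM, are the background for the list counts that follow, where the number of list genes at 50 CPM is given beside the list's size. The lists were chosen with earlier results of these data known, so that their counts are a description. The median log2 ratio over all genes averaging at least 10 CPM was -0.03 in control and 0.04 in IR. TMM scaling of the pools, which moves the median to -0.14 and -0.06, gave 106 higher and 112 lower genes in control and 129 and 141 in IR. The libraries shared 83 higher genes, 64.3% of the control and 54.6% of the IR list, and 52 lower genes, 59.1% and 48.1%. The chemokine gene Ccl1 was the single gene called in opposite directions, higher in control members and lower in IR members, and in control its log2 ratio turned to -1.16 without the top 5% of barcodes and to -0.59 with at least 2 Foxp3 UMIs.

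**Figure D2:**
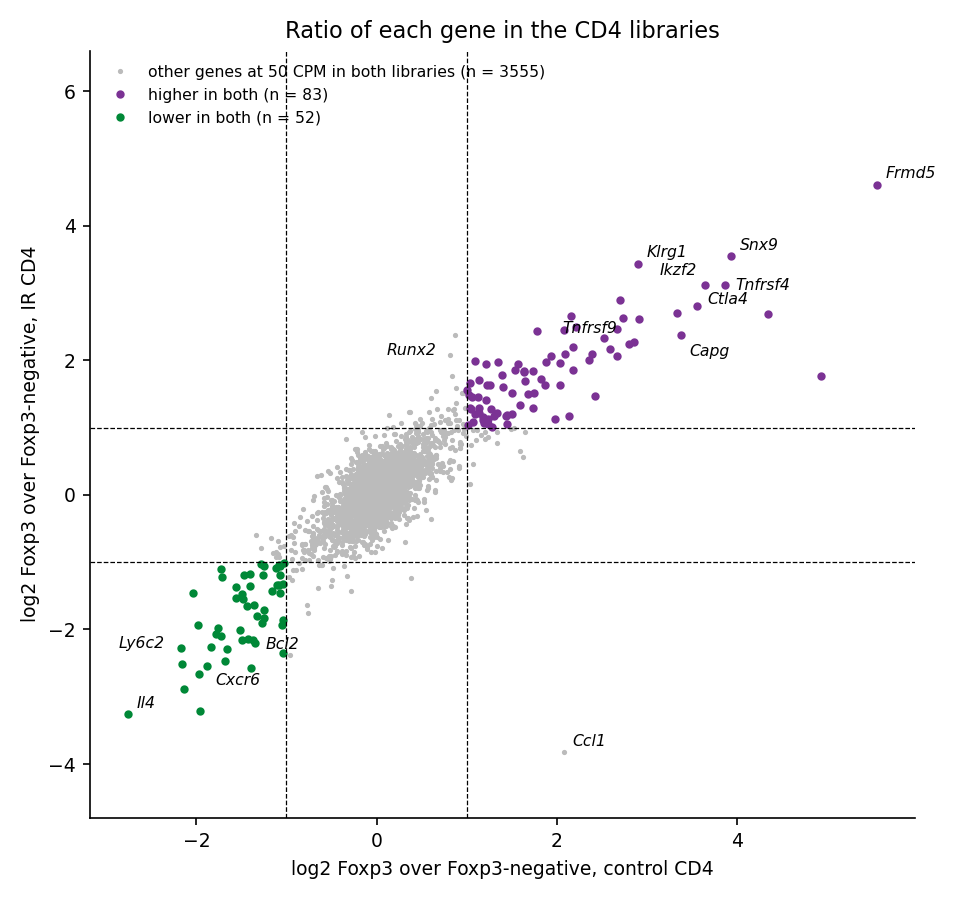
Log2 ratio of CPM in members over Foxp3-negative barcodes for the 3690 genes reaching 50 CPM in both comparisons, control CD4 on the x axis and IR CD4 on the y axis, with dashed lines at 2-fold. The 83 genes higher in both (purple) reach 5.56 and 4.61 at Frmd5, the 52 lower in both (green) reach -2.76 and -3.26 at Il4, and Ccl1 lies alone at the lower right.

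Among the genes called higher in both libraries, the largest ratio in each was that of Frmd5 (chr2:121545529-121807087, minus strand), which encodes a FERM domain protein of cell junctions. Its level was 155 CPM in control members against 3.29 in the negatives, and 109 against 4.45 in IR, ratios of 47.1-fold and 24.4-fold. It was carried by few cells: 44 control members (11.1%) held its 478 UMIs and 28 IR members (8.43%) its 77, against 0.439% and 0.411% of the negatives. Snx9, a sorting nexin of endocytosis, was more widely spread, in 143 control and 45 IR members, and had 95.6 against 6.24 CPM and 76.2 against 6.53. Signalling genes among the 12 largest in both libraries were the Src family kinase gene Lyn (log2 ratio 3.33 in control and 2.70 in IR), Matk, whose kinase restrains Src kinases (4.34 and 2.69), and Dusp4, a MAP kinase phosphatase (2.67 and 2.46). The rest of these 12 were Lamc1, a laminin chain (201 against 31.1 CPM and 155 against 20.8), Swap70, an actin-binding signalling protein (104 against 13.8 and 67.8 against 11.0), Cd83, Klrg1 and the 3 markers. Ncmap and Neb, known from myelin and muscle, were among the 5 largest in control with log2 ratios of 5.01 and 4.93, and the relaxin gene Rln3 was among the 5 largest in IR with 3.72.

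Promoter windows were at hand for 58 of the 83 genes higher in both libraries and 41 of the 52 lower in both. The forkhead letters TGTTTAC stood in 4 of 68 windows of the higher genes (5.88%) and 1 of 64 windows of the lower genes (1.56%), against 3.65% of all windows searched. The Runx letters stood in 9 (13.2%) and 15 (23.4%) against 16.8%, and the STAT letters in 6 (8.82%) and 6 (9.38%) against 8.30%, all as descriptions with no test. The 4 higher genes with a forkhead match are shown because Foxp3 belongs to that family, with the match in capitals as it reads on the plus strand of GRCm38.p6 (RefSeq starts, all on the plus strand). The matches lay at position -91 from the start of Sdcbp2 (chr2:151572512-151572558), -239 from that of Gbp3 (chr3:142559794-142559831), -107 from that of Swap70 (chr7:110221576-110221622) and -231 from that of Mxi1 (chr19:53329445-53329490). In Gbp3 and Mxi1 the letters are on the minus strand and read as their reverse complement.
Sdcbp2: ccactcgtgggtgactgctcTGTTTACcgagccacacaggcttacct
Gbp3: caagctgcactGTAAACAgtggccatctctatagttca
Swap70: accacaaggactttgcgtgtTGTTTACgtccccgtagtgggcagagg
Mxi1: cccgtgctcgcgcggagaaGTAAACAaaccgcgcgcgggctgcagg

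Surface receptors and enzymes counted among the core genes of Tregs followed the markers. Of 13 such genes measured, 11 reached 50 CPM in control and 9 in IR. In control members 9 were called higher, beside 2.88% of genes at that level, and 0 lower (median log2 ratio 2.03, against -0.03 over all genes), and in IR members 7 were higher, beside 3.66%, and 1 lower (median 1.89, against 0.04). Il2ra, the α chain of the IL-2 receptor, had 150 against 42.6 CPM in control and 179 against 54.6 in IR, log2 ratios of 1.82 (1.67 to 1.96) and 1.71 (1.44 to 1.98). Tnfrsf18, which encodes GITR, had 484 against 191 CPM and 827 against 356, and Tnfrsf9, which encodes 4-1BB, had 215 against 30.9 and 431 against 90.7. Members stood above the negatives for all 3 receptors in both libraries.

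Of the other 10 core genes, 6 were called higher in control and 4 in IR. Capg, an actin filament capping protein, had 530 against 51.2 CPM in control and 388 against 75.0 in IR. Izumo1r, the folate receptor 4 gene, had 336 against 78.8 and 376 against 88.3, and Nrp1, the neuropilin-1 gene, 267 against 69.8 and 157 against 37.7. Nt5e, the ectonucleotidase CD73 that makes adenosine, had log2 ratios of 1.98 and 1.13, the latter under 2-fold with at least 2 Foxp3 UMIs. Itgae, the integrin chain CD103, had 54.8 against 3.60 CPM in control, and in IR, at 38.1 against 3.08, was under the level needed for a call. Ikzf4, the Ikaros family factor Eos, had 59.6 against 3.70 CPM in control and 49.4 against 21.7 in IR, under the level needed for a call there. Socs2, a feedback inhibitor of cytokine signalling, was called lower in IR members at 48.0 against 123 CPM and had 72.2 against 103 in control. Entpd1, the ectonucleotidase CD39, had log2 ratios of 0.38 and 0.31 and was not called.

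Some secreted and contact-dependent effector molecules of Tregs passed the rule, all of them higher in members. Of 13 genes, 8 reached 50 CPM in control and 9 in IR. Beside 2.88% and 3.66% of genes at that level, 4 were called higher in control (Gzmb, Itgb8, Cd83 and Tigit) and 5 in IR (Il10, Areg, Gzmb, Cd83 and Tigit), 0 were lower in either, and the medians were 2.21 and 2.06. Tigit in IR was under 2-fold in 2 of 15 alternative settings. Il10 had 44.1 CPM in control members against 2.09 in the negatives and 79.1 against 5.70 in IR, held by 41 and 32 members. Areg, the gene of the epidermal growth factor receptor ligand amphiregulin, had 35.0 against 2.63 CPM and 98.8 against 13.8. Il10 and Areg thus lay under 50 CPM in control and above it in IR, while their ratios were larger in control, at 4.4 and 3.74 on the log2 scale against 3.80 and 2.84. Itgb8, an integrin chain that releases active TGF-β, had 74.5 against 2.66 CPM and 39.5 against 1.36. Tgfb1 itself differed little, with 172 against 152 CPM and 175 against 165, and the costimulator gene Icos had log2 ratios of 0.84 and 0.51. Granzyme B, encoded by Gzmb, had 60.6 against 11.8 CPM and 196 against 49.1, where 49 of the 139 UMIs of IR members lay in 1 barcode. Of the 7 co-inhibitory receptor genes, of which 4 and 3 reached 50 CPM, Pdcd1 was the one called, with 69.3 against 32.9 CPM and 63.5 against 30.0 (list medians 0.20 and 0.40). It was under 2-fold in 5 of 15 alternative settings in control, with -0.29 without barcodes of the myeloid and B cell lists, and in 4 in IR, 1 of them leaving out the member with the most UMIs of it.

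Genes of the tissue and effector state of Tregs were mixed. Of 19 genes, 12 reached 50 CPM in control and 13 in IR. Beside 2.88% higher and 1.97% lower of genes at that level in control and 3.66% and 2.6% in IR, 3 were called higher (Klrg1, Ccr8 and Glrx) and 2 lower (Id2 and Zeb2) in control, and 6 higher (Il1rl1, Klrg1, Prdm1, Ccr8, Nfil3 and Glrx) and 0 lower in IR, with medians of 0.66 and 1.01. Prdm1 was under 2-fold in 2 of 15 alternative settings and Zeb2 in 1. Il1rl1, which encodes the IL-33 receptor ST2, had 48.9 against 2.10 CPM in control and 57.9 against 4.09 in IR, and was found in 58 and 30 members. Klrg1, an inhibitory lectin receptor, had 109 against 14.6 CPM and 120 against 11.1, and Ccr8, a chemokine receptor of tissue Tregs, 54.4 against 12.2 and 53.6 against 8.54. The type 2 factor Gata3 differed by less than 2-fold, with 257 against 167 CPM and 308 against 208. Id2, which encodes a helix-loop-helix protein of effector T and NK cells, had 458 against 1158 CPM in control and 501 against 760 in IR.

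Among 27 chemokine receptor and residency genes, of which 18 in control and 17 in IR reached 50 CPM, Cxcr6 and Itga1, both markers of tissue-resident T cells, were called lower in members of both libraries. Cxcr6 had 218 against 803 CPM in control and 49.4 against 287 in IR, and Itga1 91.7 against 257 and 11.3 against 50.5. Ccr8 and Rgs16, a regulator of G protein signalling with 64.5 against 15.2 and 106 against 19.4 CPM, were higher in both, and Ccr4 and Rgs10 in control. The list thus held 4 higher and 2 lower genes in control, beside 2.88% and 1.97% of genes at 50 CPM, and 2 and 2 in IR, beside 3.66% and 2.6%, with medians of 0.14 and 0.41.

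Many genes of the helper list, which was chosen with earlier results of these data known, were lower in members. Of 24 genes, 17 reached 50 CPM in control and 16 in IR. Beside 1.97% and 2.6% of genes at that level, 10 were called lower in control and 11 in IR, 1 was called higher in both (Eea1, an endosome tether, with log2 ratios of 1.09 and 1.20, in control under 2-fold in 2 of 15 alternative settings), and the medians were -1.12 and -1.65. Cd40lg, the ligand through which helper cells activate B cells, had 129 against 369 CPM in control and 62.1 against 250 in IR, log2 ratios of -1.52 (-1.66 to -1.37) and -2.01 (-2.47 to -1.58). Ifng, the interferon-γ gene, had 221 against 456 CPM and 174 against 662, and Il4 14.9 against 101 and 9.88 against 94.5. Il2, which Tregs are known not to make, had 10.4 against 46.7 CPM and 1.41 against 21, where 1.41 CPM is 1 UMI. Tbx21, Nkg7, Themis, Pde3b, Cd226, Ly6c1 and Ly6c2 were called lower in both libraries, with Ly6c1 in IR under 2-fold in 3 of 15 alternative settings, Tbx21 in control in 2, and Cd226 in IR and Ifng in control in 1. Ccl5 was called in IR alone, with 1026 against 3455 CPM in IR and 708 against 1197 in control. Cytotoxic and NK receptor genes stood among the 12 lowest ratios in both libraries, with Klrd1 at 16.8 against 74.0 CPM in control and 21.2 against 157 in IR, Klrk1 at 33.0 against 128 and 12.7 against 117, and Fasl at 35.3 against 140 and 22.6 against 86.0. Il12rb2, a receptor chain for IL-12, had 87.5 against 312 and 19.8 against 94.3. Lyst, a regulator of lysosome traffic, had 296 against 979 and 81.9 against 351, and the others were St3gal6, Sema4a and Atp8b4, with 35.3 against 157, 25.3 against 99.0 and 71.9 against 244 CPM in control. The 5 lowest ratios of single libraries also held 4933406I18Rik in control, with 48.6 against 227 CPM, and in IR the NK receptor gene Klrb1c, with 7.06 against 69.9, and Spp1, the osteopontin gene, with 4.24 against 64.4, where 880 of the 1086 UMIs of the negatives lay in 1 barcode.

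Central or recirculating T cell genes held few calls in control and several lower genes in IR. Of 18 genes, 14 reached 50 CPM in control and 18 in IR. Beside 1.97% lower and 2.88% higher of genes at that level in control and 2.6% and 3.66% in IR, 2 were called lower and 1 higher (Il6ra) in control, and 6 lower and 0 higher in IR, with medians of -0.26 and -0.59. Il6ra was under 2-fold in 3 of 15 alternative settings, among them leaving out the member with the most UMIs of it, and Bach2 in IR in 2. Bcl2, the survival factor, had 165 against 422 CPM in control and 98.8 against 454 in IR, and the chromatin organiser Satb1 229 against 678 and 209 against 605. Tcf7, the memory and stemness factor TCF-1, had 109 against 208 CPM and 152 against 365, and was past 2-fold in IR. Igfbp4 had 30.1 against 34.1 CPM in control and 36.7 against 221 in IR, where the level of members was close to that in control and that of negatives was not. The lymph node homing receptor gene Ccr7 was not called, with 25.3 against 31.6 CPM and 127 against 241.

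**Figure D3:**
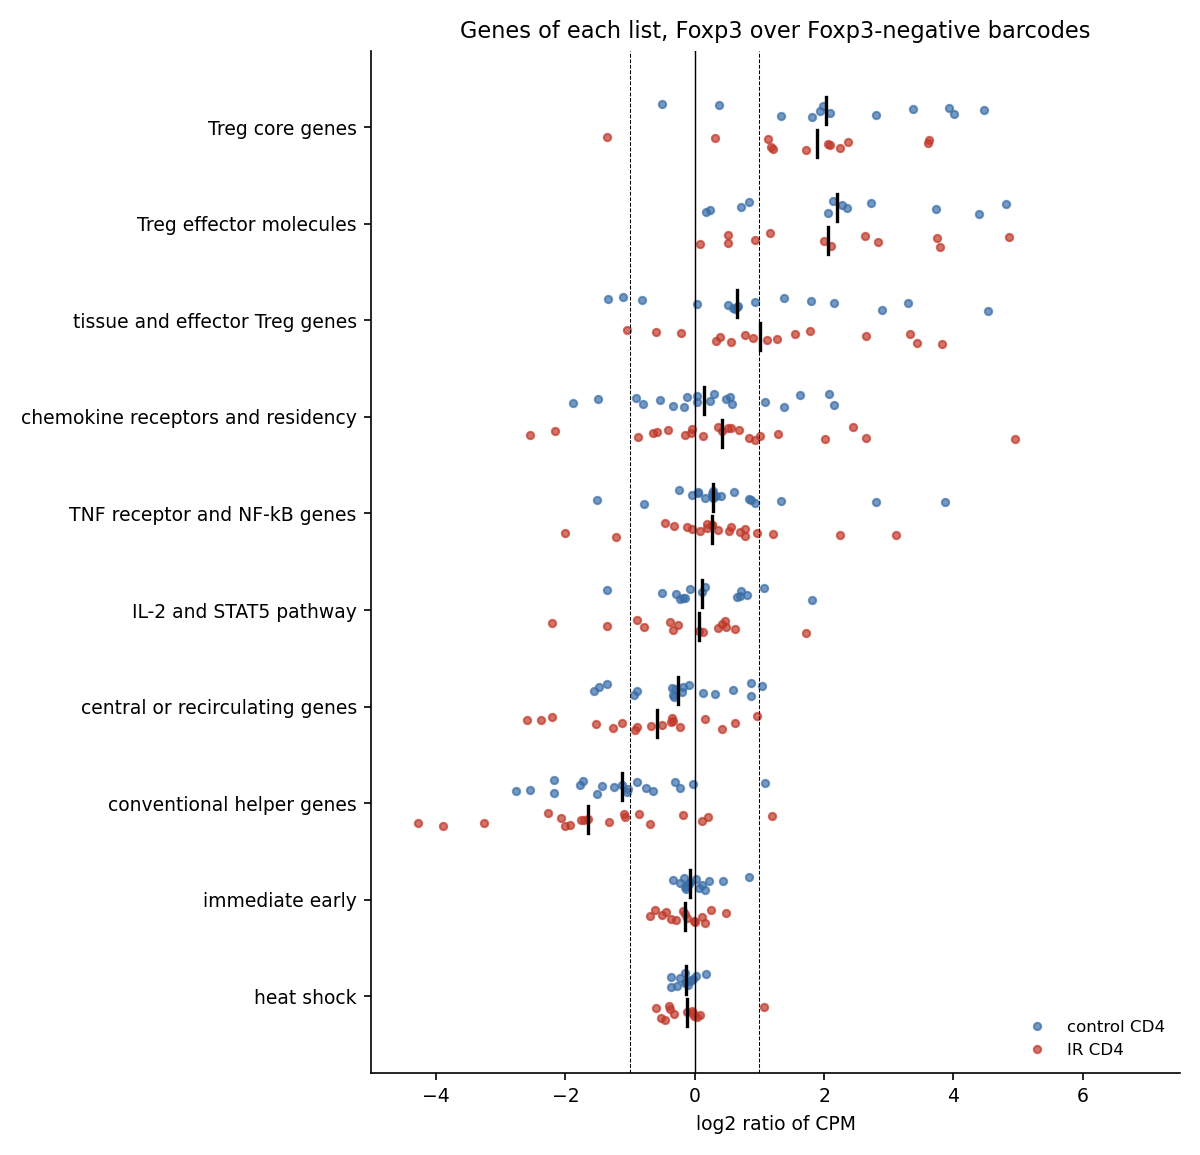
Log2 ratio of CPM in members over Foxp3-negative barcodes for each gene of 10 lists with a mean of at least 10 CPM in the pools (points, control CD4 in blue and IR CD4 in red), with black bars at the list medians and dashed lines at 2-fold. The Treg core and effector lists lie to the right (medians 1.89 to 2.21), the helper list to the left (-1.12 and -1.65), and the immediate early and heat shock lists around 0.

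Signalling lists held few called genes, to be read beside 2.88% higher and 1.97% lower of genes at 50 CPM in control and 3.66% and 2.6% in IR. In the IL-2 and STAT5 list of 15, with 12 at 50 CPM in each library, Il2ra and Pim1 were higher and Bcl2 lower in control, and Il2ra higher and Socs2 and Bcl2 lower in IR (medians 0.11 and 0.07), and Pim1 was under 2-fold with TMM scaling and Socs2 without barcodes of the myeloid and B cell lists. In the TNF receptor and NF-κB list of 21, with 18 and 19 at 50 CPM, Tnfrsf4, Tnfrsf9 and Tnfrsf18 were higher and Cd40lg lower in both libraries (medians 0.29 and 0.27). Among 17 genes of Foxp3 partners and Ikaros factors, 15 of them at 50 CPM in each library, Ikzf2 was higher in both, Ikzf4 in control and Runx2 in IR (medians 0.01 and 0.01). Runx2 had 165 against 93.9 CPM in control and 167 against 39.4 in IR, where the levels of members were alike and those of negatives were not. In the T cell receptor signal list of 28, with 23 and 24 at 50 CPM, Tox, a factor of chronic stimulation, had 1301 against 450 CPM and 645 against 179, Dusp4 was higher in both, Cd5 in IR, Dusp6 was lower in control and Spry2 in IR. The medians of that list were 0.07 and -0.05, and Cd5 and Dusp6 were under 2-fold after thinning to 1000 UMIs. Of 15 immediate early genes (medians -0.07 and -0.15) and 14 heat shock genes (medians -0.13 and -0.12), 0 were called in either library. Of 17 interferon-stimulated genes, 11 and 9 at 50 CPM, only Ifi27l2a was called, and in each library not without barcodes of the myeloid and B cell lists, with 1530 against 633 CPM and 3255 against 1351 (list medians -0.02 and -0.05). Of 18 cell cycle genes, 8 reached 50 CPM in control and 4 in IR, and Ube2c was called higher in control and Mcm6 in IR. Ube2c was under 2-fold in 8 of 15 alternative settings and Mcm6 in 7, both also without the member holding most of the gene's UMIs, and Mki67, a marker of dividing cells, had 97.5 against 71.4 CPM and 19.8 against 11.7 (list medians 0.35 and 0.46).

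Levels of a few genes are given by the number of Foxp3 UMIs, as a description only, since that count chose the members. In control the level of Ikzf2 was 246 CPM in barcodes with 0 Foxp3 UMIs, 2713 with 1, 2891 with 2 and 3410 with 3 or more. Ctla4 went from 92.2 CPM at 0 to 748, 1037 and 1332, and Capg from 51.2 to 397, 503 and 634. Cd40lg went the other way, from 369 CPM at 0 to 173, 161 and 84.1, and Tcf7 from 208 to 132, 130 and 82.7. In IR, Ikzf2 had 158, 1283, 1498 and 1570 CPM, and Ctla4 202, 1378, 1431 and 1503. The largest step of both genes was from 0 to 1, as it was in control. Tnfrsf4 in IR went from 138 CPM to 1077, 1266 and 1637, and Cd40lg from 250 to 61.5, 73.4 and 44.5. The classes differ in depth, with median UMIs of 7182, 6776 and 9689 in control and 2362, 2831 and 3109 in IR for 1, 2 and 3 or more Foxp3 UMIs.

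**Figure D4:**
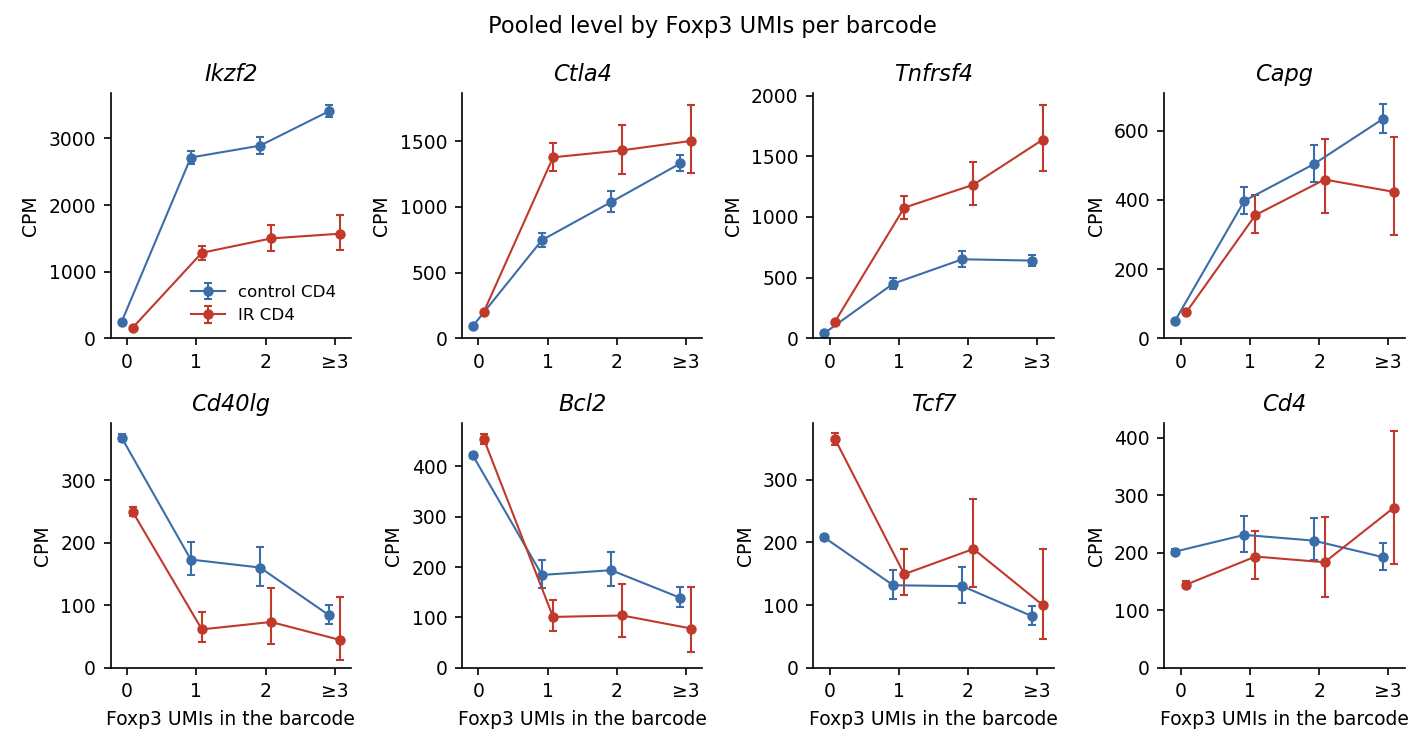
Pooled CPM of 8 genes (y axes, each from 0) by the number of Foxp3 UMIs in the barcode (x axes), in control CD4 (blue) and IR CD4 (red), with exact 95% Poisson intervals. Ikzf2, Ctla4, Tnfrsf4 and Capg step up between 0 and 1 Foxp3 UMI, Cd40lg, Bcl2 and Tcf7 step down, and Cd4 lies between 192 and 231 CPM in control and between 145 and 278 CPM in IR.

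The few members without any of the other markers had higher levels of Lef1 and Klf2 than members with all of them. The 15 control members with no UMI of Ikzf2, Ctla4 or Tnfrsf4 had 1223 CPM of Lef1, a partner factor of TCF-1, 855 of Klf2, which drives exit from tissue, and 139 of Ccr7. The 273 members with all 3 markers had 298 CPM of Lef1, 342 of Klf2 and 19.1 of Ccr7. In IR the 25 members with none had 2623 CPM of Klf2, 498 of Bcl2 and 420 of Lef1, against 750, 65.2 and 168 in the 140 with all 3. The median depths were 6976 against 8314 UMIs in control and 2065 against 2947 in IR, and the small classes rest on 100575 and 38130 pooled UMIs. The converse barcodes also existed: the 261 control and 217 IR barcodes with all 3 markers and no Foxp3 UMI carried Capg at 231 and 337 CPM, Il2ra at 103 and 116 and Ccr8 at 67.0 and 53.6, above the 31.0 and 44.1, 26.6 and 41.1, and 6.32 and 4.91 CPM of negatives with none of the markers. Leaving those barcodes out of the comparison gave 135 higher and 89 lower genes in control and 162 and 106 in IR.

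Between conditions, members and Foxp3-negative barcodes each showed many genes past 2-fold, more of them lower than higher in IR. Of 4621 genes at 50 CPM, 312 (6.75%) were higher and 627 (13.6%) lower in IR than in control members. In the Foxp3-negative barcodes, 362 of 4578 (7.91%) were higher and 740 (16.2%) lower. The median log2 ratio over all genes was -0.17 in members and -0.26 in negatives. Centring the ratios within bins of intronic length gave 265 higher and 240 lower genes, TMM scaling 365 and 504, and keeping the left-out features 172 and 928. Choosing the members after thinning to 1000 UMIs, so that control and IR members met the same total depth with left-out features counted, gave 455 and 842. Values of the negatives are set beside those of members for many of the genes and lists below, since both share their libraries.

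The genes with the largest ratios of IR over control members were also past 2-fold in the negatives. Gm50306, a long non-coding RNA, had a log2 ratio of 6.83 in members and 6.51 in negatives, 4930558K02Rik 5.74 and 5.17, Ntm 5.40 and 4.54, Lrp1b 4.56 and 4.45, and Nkain2 4.42 and 5.03. Sema3c had 3.74 and 3.45. Mt1, a metallothionein that binds zinc and copper, had 14.3 CPM in control and 227 in IR members, a log2 ratio of 3.99 against 3.46 in negatives, and was found in 27 and 46 members. Fam177a had 3.75 in members and 2.39 in negatives. The lowest ratios after that of Ccl1 (-5.28 in members and 0.63 in negatives, but 1.03 with members chosen at 1000 UMIs, and resting on 3 UMIs in IR and on 8 control members) were those of Cmss1, with -4.59 and -4.45, Hist1h1b, with -3.71 and -2.53, Chn2, with -3.36 and -2.17, Jazf1, with -3.51 and -2.77, and the heat shock genes Hspa1b (-3.13 and -2.88), Hsph1 (-3.05 and -2.79) and Hspa1a (-3.05 and -2.96).

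Ikzf2 was lower in IR members, with a log2 ratio of -1.17 (-1.26 to -1.07) against -0.64 in negatives, and lay at -0.28 after centring by intronic length. Tnfrsf4 was higher, with 1.03 (0.91 to 1.15) against 1.79 in negatives, and Tnfrsf9 with 1.0 against 1.55. Ctla4 had 0.38 (0.27 to 0.48) in members and 1.13 in negatives, and Areg 1.5 (1.04 to 1.95) and 2.40. In the core list of 13, with 11 at 50 CPM, 1 gene was higher (Tnfrsf9) and 1 lower (Entpd1), beside 6.75% and 13.6% of genes at that level. The median was -0.36 over 12 genes in members and 0.31 over 10 genes in negatives. Genes had to average 10 CPM in the pools compared, so that the medians cover different sets of genes. Of the tissue and effector list of 19, with 13 at 50 CPM, Nfil3 and Bhlhe40 were higher and 0 lower. Its median was 0.13 over 17 genes in members and -0.46 over 14 genes in negatives. Of the 13 effector molecules, 10 of them at 50 CPM, Areg and Gzmb were higher and Fgl2 lower. In negatives, with 4 of them at 50 CPM, Fgl2 was lower and 0 were higher. Tnfrsf4 was under 2-fold in 6 of 15 alternative settings (lowest 0.49) and Tnfrsf9 in 5, among them leaving out the member with the most UMIs of the gene, Entpd1 in 2 (to -0.44 after centring), and Nfil3, Gzmb and Fgl2 in 1 each.

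The other lists are read against the 6.75% higher and 13.6% lower among genes at 50 CPM in members. Of 18 central or recirculating genes, 16 of them at that level, 5 were higher in IR members (among them Ccr7, S1pr1, Klf2 and Il7r) and 1 lower (Foxo3), and in negatives 7 and 1, with medians of 0.08 and 0.43. Foxo3 was under 2-fold in 3 of 15 alternative settings and Klf2 in 1, and after centring by intronic length they were at -0.55 and 0.96. Of 15 immediate early genes, 14 of them at 50 CPM, 5 were higher in members and 6 in negatives, with 0 lower, and medians of 0.71 and 0.78, and Ier2 was under 2-fold after centring. Of 14 heat shock genes, 13 of them at 50 CPM, 6 were lower in members and 7 in negatives, with 0 higher, and medians of -1.0 and -1.18. Of 17 partner and Ikaros factor genes, 16 of them at 50 CPM, 1 was higher (Zfp281) and 5 were lower in members (Ikzf1, Ikzf2, Runx1, Bcl11b and Smad3), with medians of -0.65 and -0.74. After centring by intronic length all 5 lower genes were under 2-fold, at -0.77, -0.28, -0.32, -0.41 and -0.65, and Zfp281 was under it in 8 of 15 alternative settings.

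Of the helper list of 24, with 15 at 50 CPM, 6 were lower in members (Cd40lg, Tbx21, Cxcr3, Themis, Pde3b and Cd226) and 0 higher, and of the chemokine and residency list of 27, with 18 at 50 CPM, 3 were lower (Cxcr6, Cd44 and Itga1) and 2 higher (Cxcr4 and Rgs2), with member medians of -0.83 and -0.06. Of 17 helper genes at 50 CPM in negatives, 6 were lower (Tbx21, Cxcr3, Themis, Pde3b, Cd226 and Eea1) and 1 higher (Ccl5). The helper median there was -0.60 over 19 genes, against 17 genes in members. Of 15 chemokine and residency genes at 50 CPM in negatives, 6 were lower, among them Cxcr6, Cd44 and Itga1, and 3 higher. That median was -0.51 over 21 genes, against 23 in members. The background in negatives was 7.91% higher and 16.2% lower. In members Cd44 was under 2-fold in 4 of 15 alternative settings, Rgs2, Cxcr3 and Cd40lg in 2 and Themis in 1. Of the cell cycle list of 18, with 8 at 50 CPM, Mki67 and Top2a, the latter under 2-fold in 3 settings, were lower, with a median of -0.69, and Mki67 had a log2 ratio of -2.30 in members and -2.61 in negatives. In the IL-2 and STAT5 list of 15, with 13 at 50 CPM, 3 were higher (Socs1, Socs3 and Pim1), with Socs3 at 2.43 in members and 2.80 in negatives and Pim1 at 2.05 and 2.65. In the TNF receptor and NF-κB list of 21, with 19 at 50 CPM, Tnfrsf4, Tnfrsf9, Nfkbia (2.02 and 2.36) and Tnfaip3 were higher and Cd40lg lower. In the T cell receptor signal list of 28, with 23 at 50 CPM, Nr4a1 and Dusp5 were higher and Nr4a2, Rasgrp1 and Tox lower, with medians of -0.21 in members and -0.02 in negatives. Tox was at -1.01 in members, under 2-fold in 7 of 15 alternative settings and at 0.08 after centring. In the interferon list of 17, with 10 at 50 CPM, Isg15 and Ifi27l2a were higher and Stat2 and Gbp4 lower. The member medians of the IL-2 and STAT5, TNF receptor and NF-κB, and interferon lists were 0.19, 0.40 and -0.20. Those of negatives were 0.36, 0.39 and -0.20. Isg15 was under 2-fold in 8 of 15 alternative settings, Ifi27l2a and Tnfaip3 in 4, Stat2 in 3 and Gbp4 in 1.

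**Figure D5:**
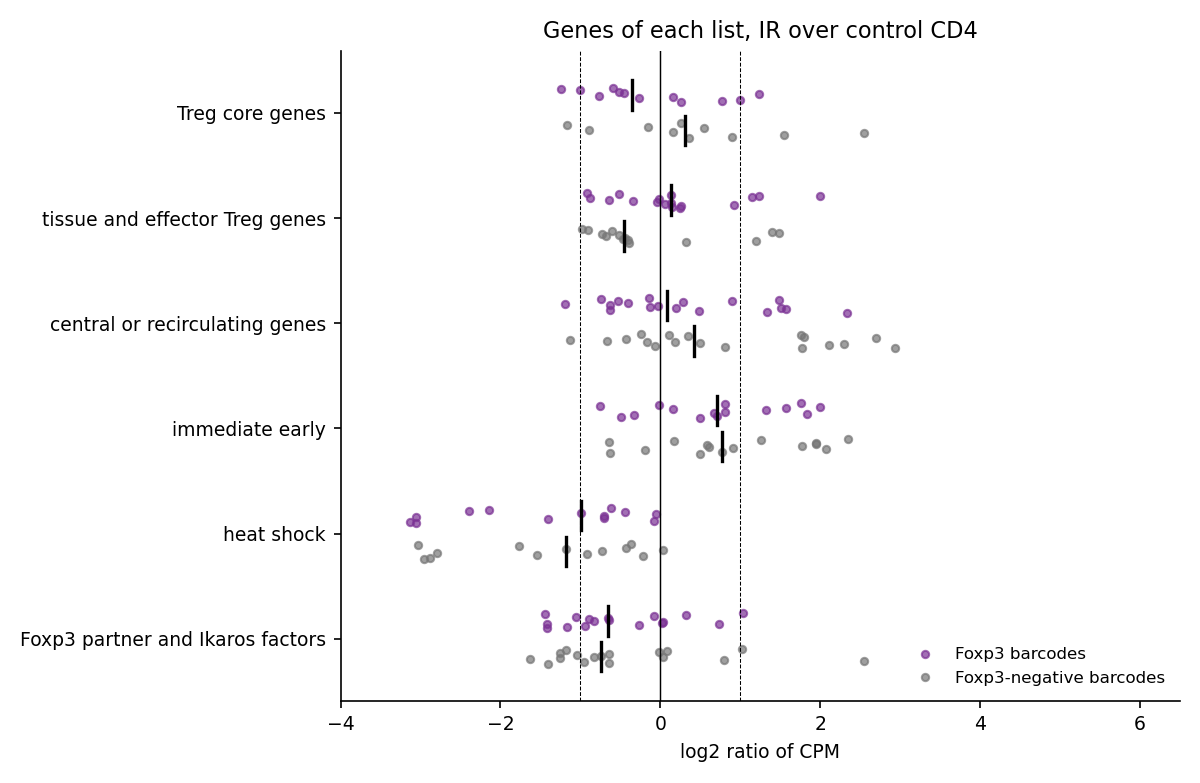
Log2 ratio of CPM in IR over control for each gene of 6 lists with a mean of at least 10 CPM in the pools (points, members in purple and Foxp3-negative barcodes in grey), with black bars at the list medians and dashed lines at 2-fold. Heat shock genes lie to the left in both pools (medians -1.0 and -1.18) and immediate early genes to the right (0.71 and 0.78). The Treg core median is -0.36 over 12 genes in members and 0.31 over 10 genes in negatives.

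A few genes had a ratio of members over negatives that differed widely between the libraries, and several of these rested on 1 or a few barcodes. Ccl1 had 164 CPM in control members against 38.8 in negatives and 4.24 against 60.0 in IR, but 8 control members held its 507 UMIs, 235 of them in 1, and the 3 UMIs of IR lay in 2. Cxcl2, a neutrophil chemokine, had 17.8 CPM in control members, where 32 of 55 UMIs lay in 1 barcode, and 62.1 in IR members against 24.9 in negatives. Smpdl3b had 87.5 against 31.8 CPM in IR, with 48 of 62 UMIs in 1 member, Gm34455 53.6 against 14.1, with 26 of 38 in 1, and Vps26c 158 against 34.5, with 45 of 112 in 1. Neb, Ikzf4 and Matk were spread over many members. Their ratios were smaller in IR by 3.16, 2.82 and 1.65 on the log2 scale, and their levels in negatives were 3.33, 3.70 and 3.61 CPM in control and 51.7, 21.7 and 14.4 in IR. Myo3b and AA467197 had larger ratios in IR, by 1.51 and 1.43 on the log2 scale, and were found in 44 and 28 IR members. Nckap5 had 16.2 against 5.83 CPM in control and 57.9 against 68.2 in IR. The differences between the libraries were not tested, and 1 library stands for each condition.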

How the data were processed

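The deposited 10x matrices hold UMI counts, which the authors obtained by running Cell Ranger against mm10 (headers name version 5.0.1 for the control and 6.0.1 for the IR libraries, the submitters' processing notes 6.0.1). The study names default settings and does not spell out the handling of introns and strand, and overlapping genes are uncertain. Control CD4 held 10090 barcodes and 75191397 UMIs, IR CD4 10878 and 29129274. As in the study, features found in fewer than 5 cells, 104 mitochondrial, ribosomal protein and Malat1 features were left out (21133 of 32285 remained). No doublet caller was run, and removing the top 5% of barcodes by UMIs is an alternative. Counts were summed over barcodes and given as CPM, a gene was called at 2-fold and 50 CPM, a count of 0 was set to 3, and medians of lists used genes averaging 10 CPM. Intervals were exact 95% Poisson, conditional binomial (ratios) and Clopper-Pearson (shares). Of the features, 99.8% matched the GRCm38 annotation. Beyond the lists, named genes were the 12 largest ratios in each direction in both libraries, 5 in each library, 8 between conditions and 6 whose ratios differed most. The members and lists were chosen with earlier results of these data known. Scripts were tested on simulated data. Python 3.11.15, scipy 1.17.1, and edgeR 4.0.16 for TMM were used. Some genes of the lists are not reported here.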

Additional observations from a re-analysis of the deposited data

Results flagged for a closer look

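The log2 ratio of members over Foxp3-negative barcodes for Ccl1, which encodes a ligand of CCR8, differed by -5.91 between the libraries (IR minus control), with members above the negatives in control and below them in IR. The difference was not tested, 235 of the 507 Ccl1 UMIs of control members lay in 1 barcode, and without the top 5% of barcodes, or with at least 2 Foxp3 UMIs, the control ratio was -1.16 or -0.59.

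Barcodes without a Cd3 UMI enter no main comparison of the report, only the alternative setting without the Cd3 requirement. Yet 23 of 452 of them in IR CD4 (5.09%, 3.25 to 7.54) held a Foxp3 UMI, against 2 of 251 (0.797%, 0.0966 to 2.85) in control CD4 and 0 in the other 4 libraries. Of these 23, 12 held a UMI of Ctla4, 9 of Tnfrsf4 and 8 of Ikzf2, at a median of 1318 UMIs. The T cell receptor constant genes Trbc2 and Trac were found in 13 and 6 of them, and Cd4 in 1.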

How the results depend on the processing

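Only 1 library stands for each condition, so depth, batch and condition cannot be told apart, and the shallower IR members limit what can be seen under about 4.24 CPM. Members and negatives were compared within the same library, and between conditions no pairing was possible because each group is 1 library. The share of members, 4.18% in control and 3.22% in IR, was 1.24% and 1.64% after thinning to 1000 UMIs, 0.651% and 0.961% at 500 UMIs, 2.70% and 1.04% with at least 2 Foxp3 UMIs, and 1.80% and 2.46% without barcodes of the myeloid and B cell lists, which hold Cst3 and Ighm. Without the top 5% of barcodes it was 3.77% in control. With a minimum of 10 CPM the higher and lower genes numbered 326 and 219 in control, 483 and 410 in IR, and 700 and 1344 between conditions. With no minimum they numbered 7444 and 835, 9335 and 852, and 9420 and 1853, since the floor of 3 counts is larger in the smaller pool. At 100 CPM there were 72 higher genes in control, 74 higher and 49 lower in IR, and 377 lower between conditions. With at least 2 Foxp3 UMIs IR had 248 higher and 208 lower genes. After thinning to 1000 UMIs, 177 genes were lower in control, 176 lower in IR and 539 higher between conditions. With the left-out features kept, 51 were lower in IR and 172 higher between conditions. Without barcodes of the myeloid and B cell lists 538 were higher between conditions, and after centring by intronic length 240 were lower. The cause of these shifts was not tested where it is not given.

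Of the named genes' log2 ratios, Ccl1 in control was -1.16 without the top 5% of barcodes and -0.59 with at least 2 Foxp3 UMIs, and Smpdl3b in IR was -1.14, -0.0098 and, without its top member, -0.68. Pdcd1 in control was -0.29 without the list barcodes. Between conditions Tox was 0.0791 after centring, and with members chosen at 1000 UMIs, an alternative chosen after seeing the data, Ccl1 was 1.03 and Zfp281 -0.10. Tnfrsf4 between conditions fell under 2-fold in some settings, to 0.49 at the lowest.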

Other observations

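Some values that enter no comparison may be worth a further look. Of the T cell receptor Vβ transcripts of members, 198 UMIs in control and 96 in IR, Trbv13-2 gave 14.6% and Trbv12-2 13.6% in control, against 15.6% and 16.3% of the negatives, and 3.12% and 19.8% in IR, against 6.74% and 20.4%. Trbv26 gave 6.06% (3.17 to 10.3) in control members against 1.89% in negatives and 11.5% (5.86 to 19.6) against 4.32% in IR. It was chosen after its values were seen, and reads of similar segments may be split between them.

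Control members without an Ikzf2 UMI, 29 of 398, had 858 CPM of Lef1 against 325 in members with one and 98.6 CPM of Gata3 against 266. In IR the 91 members without an Ikzf2 UMI had 299 CPM of Lef1 against 213 and 285 of Gata3 against 313. The median depth of these classes was 6976 against 7892 UMIs in control and 2170 against 2738 in IR.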
